A study of Mus musculus with 14 samples.

Results

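The genes described here carry the names of subunits of oxidative phosphorylation (OXPHOS), the respiratory chain and the ATP synthase of mitochondria. They were chosen by name: the protein-coding genes of mitochondrial DNA, the nuclear Nduf, Sdh, Uqcr, Cox and Atp5 families and Cyc1, without pseudogene and Gm names, and with at least 10 counts over the 14 libraries. Of 101 symbols with such a name, 88 were kept, 7 of them mitochondrial and 81 nuclear, among 50686 genes in the files. The rule goes by name alone: Cox6c2, which it kept, is annotated as a processed pseudogene, and Atp5s is named Dmac2l in RefSeq. RNA was measured by sequencing in mouse HPC-LSK cells, cultured haematopoietic progenitor lines named for the LSK surface phenotype (lineage-negative, Sca-1-positive, Kit-positive), on a C57BL/6N background. Some lines were knockouts (KO) of Cdk6, a cyclin-dependent kinase, and the others wild type (WT). Each genotype was sequenced without an oncogene and after transformation by BCR-ABL p210, a fusion tyrosine kinase. WT cells gave 4 untransformed and 3 p210 libraries, and KO cells 3 untransformed and 4 p210 libraries. Untransformed cells received 12.5 ng/ml IL-6 and 2% SCF, whereas p210 cells grew without cytokines per the labels' protocols, so transformation and medium changed together and cannot be told apart. The sample descriptions carry a code and a letter, and 6 combinations of genotype, code and letter occur in both states.

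OXPHOS carries electrons from NADH and succinate to oxygen and uses the resulting proton gradient to make ATP. Complex I oxidises NADH, complex II oxidises succinate and is also an enzyme of the tricarboxylic acid cycle, complex III passes electrons to cytochrome c, complex IV reduces oxygen, and complex V is the ATP synthase. Complex II is encoded wholly in the nucleus; the other complexes combine nuclear subunits, imported from the cytosol, with core subunits made inside the organelle from mitochondrial DNA. Haematopoietic stem and early progenitor cells are known to rely comparatively little on respiration, which increases as they differentiate.

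The libraries held 20270348 to 50303271 counts. Cdk6, the deleted gene, stood at 970, 999, 1212 and 1305 CPM (counts scaled to a common library size) in WT untransformed cells, 271, 257 and 236 in KO untransformed cells, 576, 606 and 597 in WT p210 cells, and 325, 577, 245 and 162 in KO p210 cells. The library labelled KO p210 replicate 2 therefore lay within the WT p210 values, and OXPHOS subunit calls that change when it is left out are named. None of the 5 LSK and progenitor markers was at 0 in every library. Between p210 and untransformed cells, 4 of these 5 had a negative log2 difference in each genotype. The median was -2.02 in WT (from -3.25 to 1.16) and -1.56 in KO (from -4.09 to 1.32). Markers of mature cells differed between groups: the summed CPM of 5 neutrophil and monocyte markers ran from 237 to 8375 in WT untransformed, 19771 to 27554 in KO untransformed, 998 to 4372 in WT p210 and 5643 to 13412 in KO p210 libraries, and that of 4 mast cell and basophil markers from 1200 to 4201, 2552 to 2840, 3911 to 13110 and 6902 to 10140 in the same order. The summed CPM of 3 megakaryocyte markers ran from 1906 to 4985, 872 to 1462, 1473 to 2500 and 1182 to 1814, again in that order. No marker of these lists was at 0 in every library, and their part in the results was not tested. Nothing in the labels says that replicates came from separate animals, and the p-values therefore reflect variation among these cultures that may be technical.

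Measured as TPM, the length-corrected unit in which genes can be compared, mRNAs of mitochondrial DNA far exceeded nuclear ones. Over the 14 libraries, mt-Nd1 averaged 12600 TPM, mt-Cytb 12500 and mt-Co1 10500, whereas mt-Nd6 averaged 68.4. Among nuclear genes the highest were Atp5a1 at 1310 and Atp5b at 1110 TPM, which encode the alpha and beta subunits of the catalytic head of the ATP synthase. Next came Cox8a at 978 and Cox6b1 at 876 TPM, both small subunits of complex IV. The median nuclear subunit of complex I had 144 TPM, of complex II 243, of complex III 300, of complex IV 203 and of complex V 158. At the low end, Cox6c2 (21 counts in all) and Cox6a2 (182 counts) lay just inside the 10-count minimum, and mt-Atp6 (1 count), Cox7b2 and 5 other mitochondrial genes (0 counts) lay just outside it.

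Those missing mitochondrial genes are neighbours. mt-Co2, mt-Atp8, mt-Atp6, mt-Co3, mt-Nd3 and mt-Nd4l occupy chrM:7013-10173 (GRCm38), and over all 14 libraries the 6 genes together received 1 count. They encode subunits of complexes I, IV and V and are known to be cotranscribed with their neighbours. Cutting each mitochondrial mRNA into every window of 50 bases, the read length, showed that 100% of the windows of mt-Co2, 99.5% of mt-Atp6, 99.9% of mt-Co3, 98.0% of mt-Nd3 and 98.8% of mt-Nd4l recur unchanged in annotated pseudogenes, chiefly a row of mitochondrial copies on chromosome 1. For mt-Atp8 no window was found in an annotated transcript. The recorded counting command has no option for reads that map to more than 1 place. The following windows, shown because each occurs letter for letter in both genomes, come from mt-Co2 (chrM:7329-7378 and, on the minus strand, chr1:24615200-24615249 in the pseudogene Gm28661) and from mt-Co3 (chrM:8974-9023 and, on the minus strand, chr1:24613555-24613604 in Gm28437), in GRCm38 coordinates:
mt-Co2: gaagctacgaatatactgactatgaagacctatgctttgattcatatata
mt-Co3: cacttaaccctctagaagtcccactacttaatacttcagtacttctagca
The genes at either edge of the stretch shared windows in part. In mt-Co1, which encodes the catalytic subunit of complex IV, 51.1% of windows recurred elsewhere, and in mt-Nd4, a complex I subunit, 62.2%. How reads from shared windows were counted was not tested. mt-Atp8, which also had no count, shared no window, but only annotated transcripts were searched. An unannotated copy of it could not have been found in this way. mt-Nd1, mt-Cytb and mt-Nd6 shared none.

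**Figure D1:**
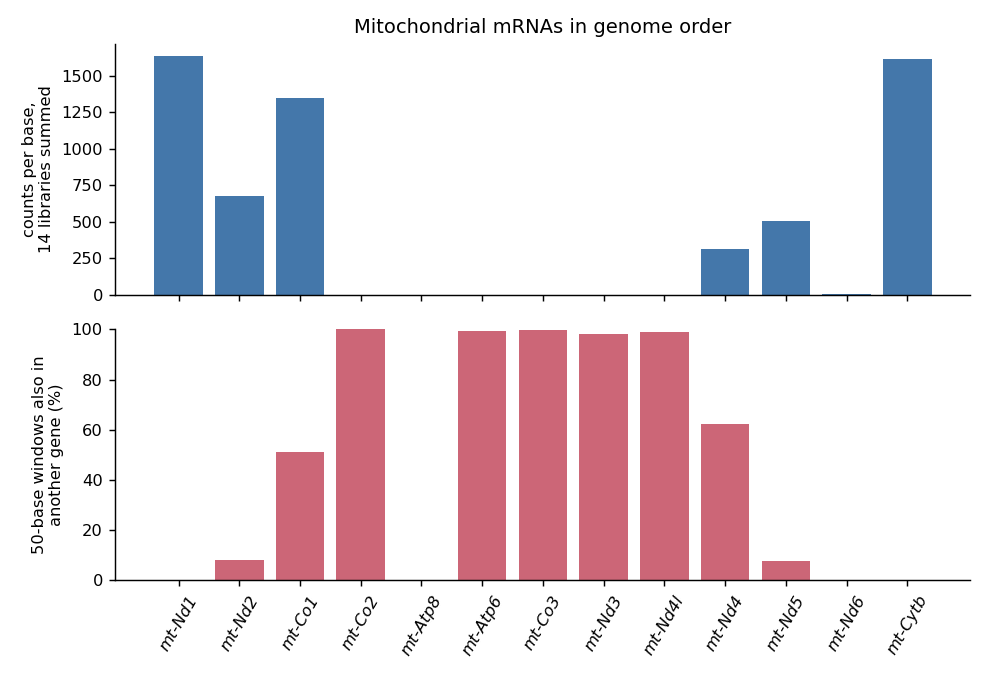
Mitochondrial mRNAs in the order of the mitochondrial genome. The upper bars give counts per base of gene length summed over the 14 libraries and the lower bars the percent of 50-base windows found in a transcript of another gene; 6 adjoining genes have 0 or 1 count, and 5 of them share 98.0 to 100% of their windows.

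Among the 7 readable mitochondrial mRNAs, none passed an adjusted p of 0.05 in any comparison, by edgeR's quasi-likelihood test with Benjamini-Hochberg adjustment over 14512 genes (unadjusted p under 0.05: 0 genes for KO against WT untransformed, 3 for KO against WT p210, 0 for p210 in WT, 1 for p210 in KO, 0 for the interaction). Together they took 1.51 to 2.08% of counts in WT untransformed, 1.69 to 1.83% in KO untransformed, 1.42 to 1.87% in WT p210 and 1.69 to 2.01% in KO p210 libraries, ranges that overlap. In bulk RNA, fewer cells of a type and less RNA per cell cannot be told apart.

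mt-Co1 had the highest group mean in KO p210 cells, at 5767, 5178, 6705 and 6376 CPM, against 4057, 4622 and 5240 in WT p210 cells, 4903, 5240 and 4392 in KO untransformed cells and 4237, 3435, 4164 and 4568 in WT untransformed cells. The lowest KO p210 library lay under the highest WT p210 and the highest KO untransformed library. The log2 difference between KO and WT p210 cells was 0.37 ± 0.13 (SE; edgeR adjusted p = 0.13), and that between KO p210 and KO untransformed cells 0.31 ± 0.13 (edgeR adjusted p = 0.0784). Without the library labelled KO p210 replicate 2 the latter passed (0.38, edgeR adjusted p = 0.0474). mt-Nd1, a membrane subunit of complex I, gave 3878, 4103, 4456 and 3398 CPM in KO p210 and 2844, 2771 and 3578 in WT p210 cells. WT p210 replicate 3 lay above the lowest KO library, and the difference was 0.37 ± 0.12 (edgeR adjusted p = 0.111; DESeq2 adjusted p = 0.0389). Without WT p210 replicate 3, mt-Nd1 and mt-Nd2 passed in this comparison (0.49 and 0.53, edgeR adjusted p = 0.0471 and 0.0303), and mt-Nd1 and mt-Cytb passed as lower in WT p210 than in WT untransformed cells (-0.37 and -0.47, edgeR adjusted p = 0.0409 and 0.048).

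All 7 had a positive log2 difference between KO and WT p210 cells, with a median of 0.35, against 6 of 7 and a median of 0.07 in untransformed cells. They come from 1 genome and are processed from shared precursors, so these are not independent values. mt-Nd6, the only mRNA of the light strand and overlapped by mt-Nd5, stood at 43.0 CPM in the library labelled KO p210 replicate 2 and between 4.50 and 14.6 in the other 13. Its difference between KO p210 and KO untransformed cells passed in 1 alternative fit, without KO p210 replicate 4 (1.33, edgeR adjusted p = 0.0462).

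As over all tested genes, calls among nuclear OXPHOS genes came mainly between p210 and untransformed cells. Most of these OXPHOS calls were lower in p210 cells. In WT, 28 of 80 tested nuclear genes fell and 2 rose, where 17.6% of all tested genes fell and 21.9% rose (39.5% in either direction). In KO, 21 fell and 3 rose, where 18.0% of all fell and 19.2% rose (37.2% in either direction). Counted in either direction, the nuclear OXPHOS share exceeded that of all tested genes in neither genotype. The median log2 difference of the nuclear genes was -0.16 in WT and -0.13 in KO, beside 0.02 for all tested genes in WT. Most changes were small: of the genes that fell, Ndufa4 in WT did so by 0.93 on the log2 scale and the others, in either genotype, by at most 0.54. Between untransformed and p210 libraries the CPM did not overlap for 35 lower and 3 higher nuclear genes in WT (21.6% and 23.5% of all tested genes) and for 26 lower and 2 higher in KO (23.5% and 22.6%). Cox6c2 had too few counts to be tested.

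The WT and KO comparisons share no library, and 19 genes fell in both, which is 67.9% of the WT list and 90.5% of the KO list. Cox7c rose in both. The same overlap was not counted over all tested genes, so these shares cannot be called particular to OXPHOS genes. The interaction of genotype and p210, which tests whether the p210 difference itself differs between WT and KO, passed for none of the 80 nuclear genes (4 at an unadjusted p under 0.05; DESeq2 also called 0), where 0.0345% of all tested genes passed.

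Scaling by library size alone gave 44 calls in KO, 42 of them lower. With line (genotype, code and letter) as a block, which uses only the 3 WT and 3 KO lines measured in both states, 16 nuclear genes passed in WT and 14 in KO. Within the first code 9 passed in WT and 15 in KO, and within the second 1 and 0, with medians of -0.10, -0.14, -0.32 and -0.16. The WT count was 19 without WT p210 replicate 3, and the KO count was 12 without KO untransformed replicate 3 and 21 when KO p210 replicate 2, by its label, was left out. Without that library 5 KO calls were lost, Ndufa4 (-0.31, edgeR adjusted p = 0.0608), Ndufb4 (-0.46, 0.0989), Ndufs4 (-0.32, 0.0656), Uqcrfs1 (-0.19, 0.0502) and Atp5o (-0.17, 0.0696), and 2 were gained, Ndufa1 (0.33, 0.0452) and Ndufa13 (0.25, 0.0272).

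**Figure D2:**
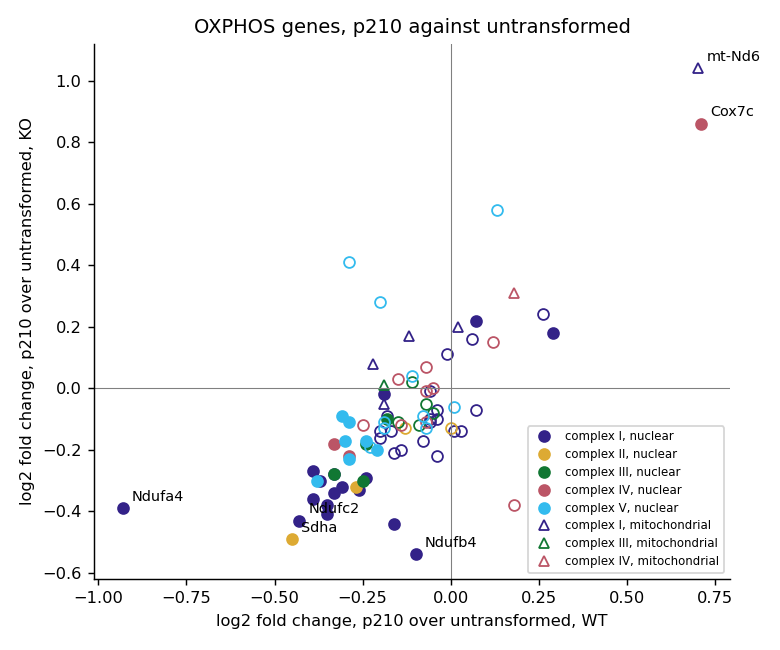
Log2 fold change of each tested OXPHOS gene, p210 over untransformed, in WT (horizontal) and KO (vertical), coloured by complex, with circles for nuclear and triangles for mitochondrial genes. Filled symbols passed an adjusted p of 0.05 in at least 1 genotype, most of them lie to the lower left, and Cox6a2 and Cox6b2, with log2 values beyond the axes, are left out.

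Summed over all nuclear genes, the level was 10485 to 11049 CPM in WT untransformed and 10334 to 10891 in KO untransformed libraries, and 8668 to 9911 in WT p210 and 9480 to 9986 in KO p210 libraries. Every p210 library thus lay below every untransformed one. Complex II was lowest relative to its untransformed level, with 877 ± 13.4 CPM (SD, n = 4) in WT untransformed, 919 ± 21.7 (n = 3) in KO untransformed, 726 ± 37.9 (n = 3) in WT p210 and 737 ± 7.15 (n = 4) in KO p210 cells. For complex IV by gene name the states overlapped in both genotypes, at 1420 to 1484 CPM untransformed and 1272 to 1424 with p210 in WT, and at 1478 to 1530 and 1381 to 1505 in KO. That sum leaves out Ndufa4, which is counted in complex I by its name although its protein is known as a complex IV subunit. Ndufa4 alone had 241 to 285 CPM untransformed and 114 to 157 with p210 in WT, and 176 to 200 and 121 to 166 in KO. The overlap is therefore stated only for the sum by name. For complex V the states overlapped in KO, at 3993 to 4372 and 3840 to 4049. As a share of all counts, nuclear OXPHOS genes held 1.13 to 1.2% in WT untransformed, 1.02 to 1.1% in KO untransformed, 0.843 to 1.01% in WT p210 and 0.880 to 0.948% in KO p210 libraries. This share scales each library by its total alone, and so depends on what else the library holds. The scaling factors that TMM gave also differed between the states, at 0.988 to 1.08 in untransformed and 0.913 to 1.04 in p210 libraries, and their part in the result was not tested.

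**Figure D3:**
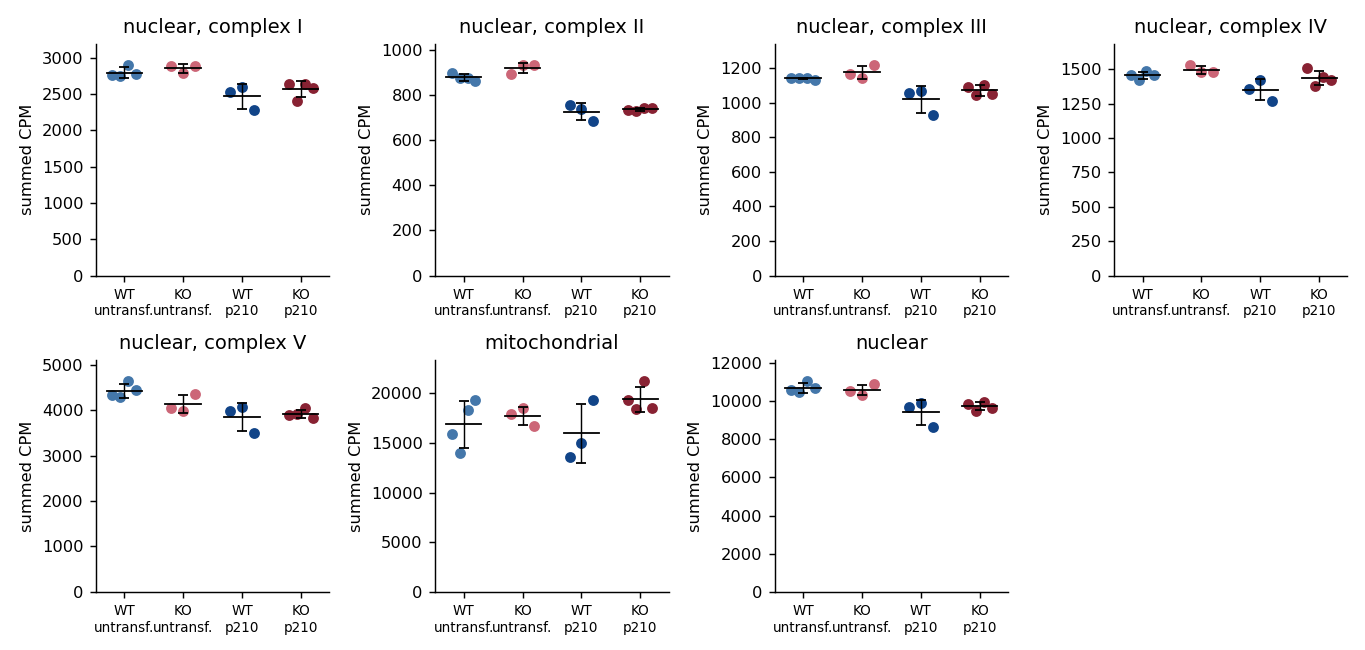
Summed CPM of the nuclear genes of each complex, of the 7 mitochondrial mRNAs and of all nuclear genes, by library and group. Points are libraries, bars the mean ± SD; the nuclear sums of p210 libraries lie below those of untransformed libraries (at most 9986 against at least 10334), whereas mitochondrial sums overlap.

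In complex I, 13 of 36 nuclear genes fell and 1 rose in WT (36.1% and 2.78%), and 14 fell and 1 rose in KO (38.9% and 2.78%). Of all tested genes, 17.6% fell and 21.9% rose in WT, and 18.0% fell and 19.2% rose in KO. Ndufa4 had the largest change in WT. It carries a complex I name, although its protein is known as a subunit of complex IV. It stood at 247, 250, 285 and 241 CPM in WT untransformed, 198, 176 and 200 in KO untransformed, 130, 157 and 114 in WT p210 and 144, 121, 166 and 154 in KO p210 cells. All p210 values were below all untransformed values, and KO untransformed lay below WT untransformed. The log2 difference with p210 was -0.93 ± 0.12 in WT (edgeR adjusted p = 0.000188) and -0.39 ± 0.12 in KO (edgeR adjusted p = 0.0252), and the difference between these, 0.55 ± 0.17, did not pass (edgeR adjusted p = 0.249). In WT this was the only call that held in all 30 alternative fits; in KO it was lost in 7, among them the fit without the library labelled KO p210 replicate 2.

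The other complex I genes that fell were accessory subunits of the membrane arm, such as Ndufc2, Ndufb9, Ndufb10 and Ndufb11, and subunits of the peripheral arm, such as Ndufs8 and Ndufv2, which hold iron-sulfur clusters. Ndufv2 did not pass with line as a block (-0.24, edgeR adjusted p = 0.105 in WT, and -0.32, 0.0536 in KO). Ndufc2 gave 78.5 to 90.0 CPM in WT untransformed, 84.8 to 92.0 in KO untransformed, 55.8 to 67.3 in WT p210 and 60.6 to 72.2 in KO p210 cells, a difference of -0.43 ± 0.08 in each genotype (edgeR adjusted p = 0.00206 in WT, 0.00212 in KO). Ndufb11 fell by 0.37 ± 0.07 in WT and by 0.30 ± 0.07 in KO on the log2 scale (edgeR adjusted p = 0.00168 and 0.00556). Ndufb9 fell by 0.39 and 0.27 (in KO not past the threshold with line as a block, edgeR adjusted p = 0.0698), and Ndufs8 by 0.39 and 0.36. Ndufa6 passed in KO, falling by 0.44 ± 0.08 (edgeR adjusted p = 0.00122), and had a difference of -0.16 ± 0.08 in WT (0.119); its interaction, -0.27 ± 0.11, did not pass (0.308). Ndufb4 passed in KO at 4.93 to 6.4 CPM untransformed and 3.12 to 4.77 with p210 (-0.54 ± 0.19, edgeR adjusted p = 0.0418), a call lost in 20 of 30 alternative fits, from few counts and with 18.3% of its windows shared with other genes. Ndufa13 rose in WT (0.29 ± 0.09, edgeR adjusted p = 0.0175) and Ndufb7 in KO (0.22 ± 0.07, 0.0285); 27.1% of the windows of Ndufa13 lie in an overlapping gene.

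**Figure D4:**
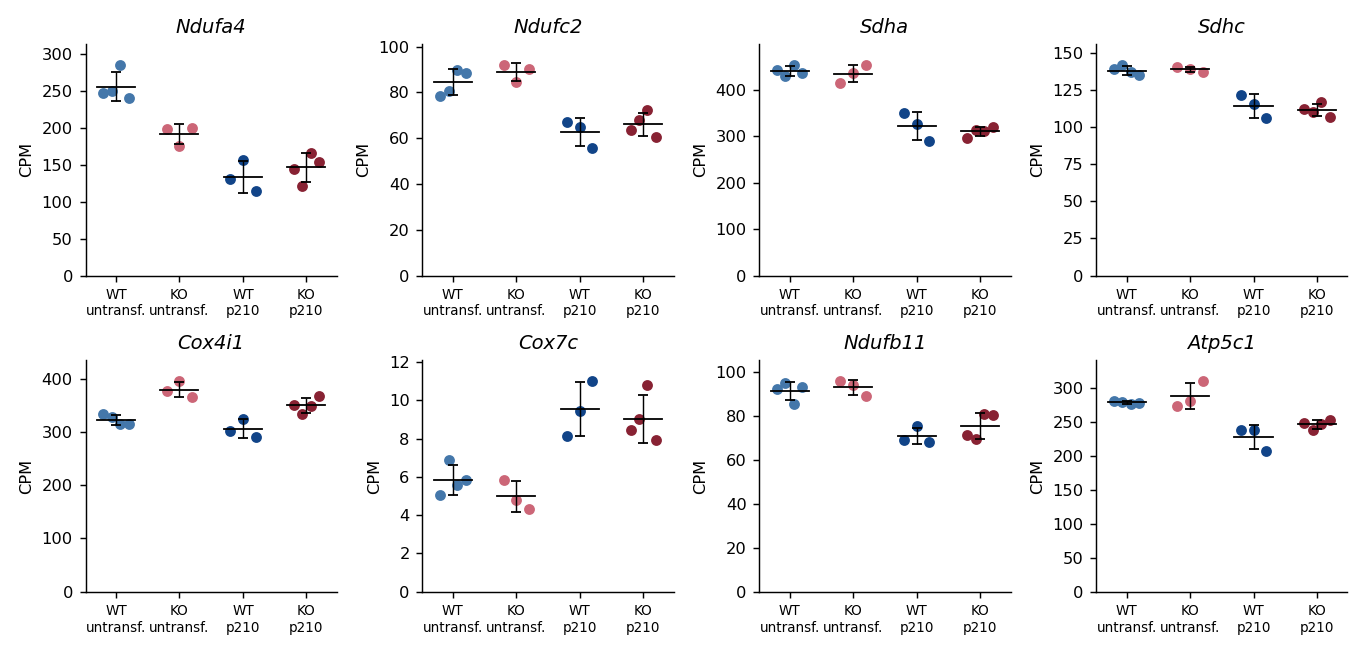
CPM of 8 nuclear OXPHOS genes by library and group, with points for libraries and bars for the mean ± SD. Ndufa4, Ndufc2, Sdha, Sdhc, Ndufb11 and Atp5c1 are lower in p210 than in untransformed cells of the same genotype, Cox7c is higher, and Cox4i1 is higher in KO than in WT cells in each state.

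In complex II, Sdha and Sdhc fell in both genotypes and Sdhb and Sdhd did not pass. Sdha, the flavoprotein that oxidises succinate, stood at 442, 430, 453 and 435 CPM in WT untransformed, 415, 436 and 452 in KO untransformed, 350, 326 and 289 in WT p210 and 297, 313, 312 and 319 in KO p210 cells. The p210 and untransformed values did not overlap. The differences were -0.45 ± 0.07 in WT (edgeR adjusted p = 0.000386) and -0.49 ± 0.07 in KO (edgeR adjusted p = 0.000275), the smallest adjusted p among the nuclear genes in KO. Sdhc, a membrane anchor of the complex, fell from 138 ± 2.79 (SD, n = 4) to 115 ± 8.06 CPM (n = 3) in WT and from 139 ± 2.16 (n = 3) to 111 ± 4.12 (n = 4) in KO.

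Nuclear genes of the respiratory chain are known to share binding sites for NRF1, GABPA, YY1 and ERR factors near their starts. RefSeq promoters (GRCm38.p6, 250 bases before to 50 after the start) matched 66 of the 81 nuclear genes, with 71 promoters. The core of the NRF1 palindrome, CGCATGCG, read on both strands, occurred in 12.7% of these and in 1.87% of all 32851 promoters. With any base at its 5th position, as CGCANGCG, which includes the first word, the shares were 39.4% and 8.21%; both NRF1 words were chosen after these sequences had been seen. The ETS word of GABPA, CCGGAAG, occurred in 22.5% against 8.86%, the YY1 word AAGATGGC in 14.1% against 2.75%, and the ERR word TCAAGGTCA in 2.82% against 0.423%. Of the matched genes, CGCANGCG was found in 10 of the 24 that fell in either genotype and in 15 of the 42 that did not, and CCGGAAG in 4 and 12. These are matches of letters, and the median GC content was 57.7% against 52.7% for all promoters. The median ratio of observed to expected CG pairs was 0.807 against 0.384. The NRF1 and ETS words themselves hold CG pairs, and the part of base composition in these shares was not tested.

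The 150 bases before the annotated start are shown to compare a gene that fell in both genotypes and holds several NRF1 words (Sdha, 3 matches, chr13:74350241-74350390), another such gene (Atp5c1, 2 matches, chr2:10080433-10080582), the gene with the largest fall in WT, which holds none (Ndufa4, chr6:11907451-11907600), and a complex II gene that did not pass with p210 (Sdhd, 1 match, chr9:50603850-50603999), all on the minus strand. Atp5c1 has more than 1 annotated start, and the one shown was chosen because the bases before it hold the NRF1 word. Capitals mark CGCANGCG on either strand and, in Sdhd, CCGGAAG on the other strand:
Sdha: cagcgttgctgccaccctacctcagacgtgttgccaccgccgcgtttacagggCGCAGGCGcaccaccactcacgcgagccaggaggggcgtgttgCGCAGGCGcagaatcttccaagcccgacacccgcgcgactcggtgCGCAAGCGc
Atp5c1: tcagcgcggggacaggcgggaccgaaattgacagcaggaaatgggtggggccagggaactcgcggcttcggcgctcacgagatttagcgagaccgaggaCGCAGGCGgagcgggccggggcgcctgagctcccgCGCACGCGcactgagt
Ndufa4: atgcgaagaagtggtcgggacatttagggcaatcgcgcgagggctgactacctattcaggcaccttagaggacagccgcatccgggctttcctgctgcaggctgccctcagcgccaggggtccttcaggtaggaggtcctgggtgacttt
Sdhd: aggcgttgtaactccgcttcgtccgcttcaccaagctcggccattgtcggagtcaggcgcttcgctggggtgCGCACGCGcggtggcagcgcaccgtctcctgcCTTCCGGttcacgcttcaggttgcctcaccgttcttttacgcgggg

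In complex III, 4 of 9 nuclear genes fell in WT (44.4%) and 2 in KO (22.2%), and none rose. Of all tested genes 17.6% fell in WT and 18.0% in KO, so the KO share was near that of all genes. Uqcrfs1, the Rieske iron-sulfur protein, fell from 110 ± 3.91 (SD, n = 4) to 92.9 ± 5.13 CPM (n = 3) in WT and from 107 ± 1.66 (n = 3) to 94.2 ± 5.66 (n = 4) in KO. Uqcrc1, a core protein, fell by 0.25 ± 0.08 in WT and by 0.30 ± 0.08 in KO on the log2 scale (edgeR adjusted p = 0.0282 and 0.0124). Uqcrc2, the other core protein, and Uqcrb passed in WT. The differences in KO were -0.10 ± 0.06 for Uqcrc2 (edgeR adjusted p = 0.191) and -0.28 ± 0.11 for Uqcrb (0.0564), and neither interaction passed. With line as a block, Uqcrc1 (-0.26, edgeR adjusted p = 0.0918), Uqcrc2 (-0.18, 0.0973) and Uqcrb (-0.32, 0.131) did not pass in WT, nor Uqcrc1 in KO (-0.31, 0.0598), whereas Uqcrfs1 kept its call in both. In KO, Uqcrfs1 was lost in 12 of 30 alternative fits.

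Complex IV, taken by gene name and so without Ndufa4, held few calls, and its difference from the other complexes was not tested. Of its 14 tested nuclear genes, which include scarce isoforms such as Cox6a2 and Cox7a1, 2 fell and 1 rose in WT (14.3% and 7.14%), and 0 fell and 2 rose in KO (14.3% higher). Of all tested genes, 17.6% fell and 21.9% rose in WT, and 18.0% fell and 19.2% rose in KO. Cox8a fell from 172 ± 11.3 (SD, n = 4) to 140 ± 17.0 CPM (n = 3) in WT, and Cox7a2l from 105 ± 9.84 to 83.6 ± 3.68. Of the windows of Cox7a2l, 13.8% recur in Gm6969, a pseudogene with 4419 counts of its own. With line as a block Cox8a did not pass (-0.29, edgeR adjusted p = 0.127). Cox4i1, the largest nuclear subunit, gave -0.07 ± 0.06 in WT and -0.11 ± 0.06 in KO, and Cox6b1 gave -0.07 ± 0.07 and -0.01 ± 0.07; neither passed. Cox7c, a small membrane subunit, rose from 5.03, 6.87, 5.60 and 5.82 to 8.16, 9.47 and 11 CPM in WT and from 5.86, 4.78 and 4.30 to 8.46, 9.03, 10.8 and 7.91 in KO (log2 0.71 ± 0.17 and 0.86 ± 0.18, edgeR adjusted p = 0.00713 and 0.00302). The groups did not overlap in either genotype. It averaged 21.5 TPM, below the 203 of the median complex IV gene. Of the windows of all its annotated transcripts, 22.1% recur in other genes, among them the pseudogenes Gm10012 (180 windows) and Gm12338 (143). The share within its protein-coding mRNA alone was not computed, and the part of these copies in its level and rise was not tested.

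In complex V, 7 of 17 genes fell in WT (41.2%) and 3 in KO (17.6%), and none rose. Of all tested genes 17.6% fell in WT and 18.0% in KO, so the KO share was near that of all genes. Atp5c1, the gamma subunit that turns inside the catalytic head, stood at 277 to 281 CPM in WT untransformed, 274 to 310 in KO untransformed, 207 to 238 in WT p210 and 238 to 253 in KO p210 cells, without overlap between states. The differences were -0.29 ± 0.06 in WT (edgeR adjusted p = 0.00344) and -0.23 ± 0.06 in KO (edgeR adjusted p = 0.0146). Atp5f1 and Atp5o, subunits of the peripheral stalk, also passed in both. In KO the call of Atp5o was lost in 22 of 30 alternative fits and that of Atp5f1 in 5. With line as a block, Atp5f1 (-0.20, edgeR adjusted p = 0.121) and Atp5a1 (-0.29, 0.0903) did not pass in WT, nor Atp5c1 (-0.23, 0.0752), Atp5f1 (-0.21, 0.103) and Atp5o (-0.16, 0.18) in KO. Atp5a1 and Atp5j passed in WT (-0.29 ± 0.08 and -0.31 ± 0.07, edgeR adjusted p = 0.00959 and 0.00597) and not in KO (-0.11 ± 0.07 and -0.09 ± 0.07, 0.249 and 0.347), and the interactions, 0.18 ± 0.11 and 0.21 ± 0.10, did not pass (0.472 and 0.367). In untransformed cells both were already lower in KO than in WT without overlap, by differences of -0.15 ± 0.07 and -0.18 ± 0.07 that did not pass (0.185 and 0.101). Of the genes for the membrane ring, Atp5g3 was measured at 365 TPM and Atp5g1 and Atp5g2 at 2.48 and 2.99 TPM, the latter with 11.1% and 36.7% of their windows shared with other genes.

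Between KO and WT, few nuclear genes passed. In untransformed cells 3 of 80 rose (Ndufa6, Sdhd, Cox4i1) and 1 fell (Ndufa4), where 8.73% of all tested genes rose and 6.5% fell (15.2% in either direction). The CPM did not overlap for 12 higher and 6 lower nuclear genes (20.8% and 18.9% of all tested genes). Scaling by library size alone, which moved the median log2 difference of all genes from -0.02 to -0.12, gave 0 higher and 4 lower. Without the library labelled KO p210 replicate 2, which enters through the shared spread and scaling, Ndufa13 passed as well (0.25, edgeR adjusted p = 0.0418). Each of the 4 calls was lost in at least 11 of 29 alternative fits. Without WT untransformed replicate 3 all 4 were lost, and the 1 gene that passed was another. Without KO untransformed replicate 3, 2 passed, Ndufa6 and Cox4i1. Without WT untransformed replicate 2 or 4, or KO untransformed replicate 1 or 2, none of the 80 passed. Cox4i1 stood at 377, 395 and 366 CPM in KO untransformed cells and 333, 327, 314 and 314 in WT untransformed cells, a difference of 0.24 ± 0.06 (edgeR adjusted p = 0.0232). In p210 cells it stood at 350, 334, 349 and 368 in KO and 302, 325 and 291 in WT, again without overlap, with a difference of 0.19 ± 0.06 that did not pass (0.0877). Sdhd, the other membrane anchor of complex II, stood at 225, 232 and 228 CPM in KO and 207, 195, 180 and 188 in WT untransformed cells (0.25 ± 0.06, edgeR adjusted p = 0.0232). In p210 cells none of the 80 nuclear genes passed, where 0.882% of all tested genes rose and 3.56% fell (4.44% in either direction); 6 of them reached an unadjusted p of 0.05, and the alternative tools called 3 (DESeq2) and 1 (limma-voom). Here the CPM did not overlap for 6 higher and 1 lower (5.64% and 7.7% of all tested genes).

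Several complex IV subunits exist as a common form and one known from particular tissues. Cox6b2, known from testis, was measured here beside the common Cox6b1. It stood at 12.6, 15.2, 12.1 and 9.20 CPM in WT untransformed, 6.77, 5.09 and 4.07 in KO untransformed, 13.5, 14.3 and 15 in WT p210, and 0.104, 0.116, 4.45 and 0.351 in KO p210 cells. Every KO library was below every WT library, and 3 of 4 KO p210 libraries held only 2, 3 and 9 counts of it, replicate 3 the remaining 153. The log2 difference between KO and WT was -3.46 ± 0.95 in p210 cells (edgeR adjusted p = 0.0637) and -1.21 ± 0.93 in untransformed cells (0.393), neither past the threshold. In p210 cells it passed without KO p210 replicate 3 (-6.16, edgeR adjusted p = 7.16e-05), with DESeq2 (-3.50, 0.00251), with limma-voom (-4.87, 0.00747) and within the first code (-6.92, edgeR adjusted p = 0.00154). The interaction passed without KO p210 replicate 3 (-4.95, edgeR adjusted p = 0.00958) and within the first code (-5.68, edgeR adjusted p = 0.00896). For p210 against untransformed cells in KO the difference in Cox6b2 was -2.03 and did not pass (edgeR adjusted p = 0.103). With line as a block it passed (-4.77, edgeR adjusted p = 0.00486). In that fit KO p210 replicate 3, whose line has no untransformed library, adds nothing to the difference. Of the summed TPM of both forms, Cox6b2 made up 2.97 to 5% in WT untransformed, 1.43 to 2.16% in KO untransformed, 4.45 to 5.29% in WT p210 and 0.0316 to 1.55% in KO p210 libraries. Cox6b1 itself ranged only from 171 to 211 CPM.

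Cox6a2, the heart and muscle form of Cox6a1, had at most 0.188 CPM outside KO p210 cells and 0.679, 0.116, 3.69 and 0.468 in them. It passed for p210 against untransformed in KO (3.56 ± 1.14, edgeR adjusted p = 0.0281), with 127 of its 182 counts in KO p210 replicate 3. Cox7a1, the heart and muscle form of Cox7a2, lay between 0.320 and 1.41 CPM and passed in no comparison.

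**Figure D5:**
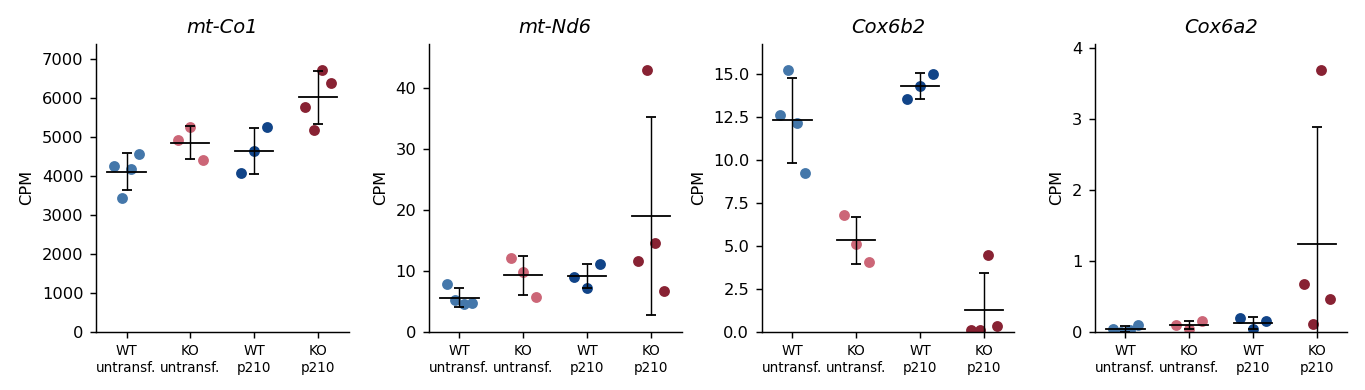
CPM of mt-Co1, mt-Nd6, Cox6b2 and Cox6a2 by library and group, with points for libraries and bars for the mean ± SD, cut at 0. KO p210 replicate 3 stands above the other KO p210 libraries in Cox6b2 (4.45 CPM) and Cox6a2 (3.69 CPM), and the library labelled KO p210 replicate 2 in mt-Nd6 (43.0 CPM).

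Other mitochondrial genes were read through lists, beside the shares of all tested genes that fell and rose with p210 (17.6% and 21.9% in WT, 18.0% and 19.2% in KO). Of 77 tested mitochondrial ribosomal protein genes, 24 fell and 3 rose with p210 in WT and 17 fell and 1 rose in KO, with median differences of -0.13 and -0.07; the share that fell, 31.2% in WT and 22.1% in KO, was near that of all genes in KO. Mrpl36, a large-subunit protein, gave -0.47 ± 0.09 and -0.56 ± 0.08 (edgeR adjusted p = 0.00119 and 0.00048). Of 46 assembly factors of the complexes, 15 fell and 5 rose in WT (32.6% and 10.9%) and 13 fell and 5 rose in KO (28.3% and 10.9%). Cox20, which helps to mature subunit 2 of complex IV, was lower in p210 than in untransformed and in KO than in WT cells: it averaged 23.3 ± 1.96 CPM (SD, n = 4) in WT untransformed, 17.9 ± 0.483 (n = 3) in KO untransformed, 15.4 ± 0.395 (n = 3) in WT p210 and 10.9 ± 0.884 (n = 4) in KO p210 cells, and passed in all 4 pairwise comparisons (edgeR adjusted p from 0.00015 to 0.0197). Ttc19, a complex III factor, rose by 0.99 ± 0.15 in WT and 1.39 ± 0.15 in KO (edgeR adjusted p = 0.000338 and 7.05e-05).

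Genes that maintain and express mitochondrial DNA held 5 higher and 3 lower of 36 with p210 in each genotype (13.9% and 8.33%), smaller shares than over all tested genes. Tfam, which packages mitochondrial DNA and starts its transcription, stood at 77.2 ± 0.714 CPM (SD, n = 4) in WT untransformed, 59.0 ± 4.76 (n = 3) in KO untransformed, 51.6 ± 4.80 (n = 3) in WT p210 and 46.3 ± 1.98 (n = 4) in KO p210 cells. It fell with p210 in WT and KO and was lower in KO than in WT untransformed cells (-0.58 ± 0.07, -0.35 ± 0.07 and -0.39 ± 0.07, edgeR adjusted p = 0.00014, 0.00301 and 0.00911), while none of the 7 mitochondrial mRNAs passed. Of 13 tested regulators of mitochondrial biogenesis, Esrra, the orphan receptor ERR alpha, rose with p210 from 23.5 ± 1.93 to 41.8 ± 3.16 CPM in WT and from 27.9 ± 1.84 to 40.9 ± 3.84 in KO, whereas 3 genes fell in WT, among them Sirt1 (-0.67 ± 0.09), and 2 in KO, among them Ppargc1b (-1.0 ± 0.3). Of 21 genes of the tricarboxylic acid cycle and pyruvate dehydrogenase, 5 rose and 3 fell in each genotype (23.8% and 14.3%), shares near those of all tested genes. Cs, citrate synthase, rose (0.39 ± 0.07 in WT and 0.37 ± 0.07 in KO) and Fh1, fumarase, which acts right after complex II, fell (-0.45 ± 0.07 and -0.53 ± 0.07; edgeR adjusted p = 0.000405 and 0.000167).

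Of 14 tested carriers, channels and inhibitors, 4 fell and 0 rose with p210 in WT (28.6% lower) and 2 fell and 0 rose in KO (14.3% lower, against 18.0% of all tested genes). Slc25a5, an ADP/ATP carrier, fell by 0.40 ± 0.11 and 0.34 ± 0.11 (edgeR adjusted p = 0.0133 and 0.0315). Ucp2, a carrier of the inner membrane, set the genotypes apart: it stood at 423, 395, 317 and 366 CPM in WT untransformed, 692, 736 and 667 in KO untransformed, 312, 315 and 483 in WT p210 and 853, 835, 729 and 915 in KO p210 cells. Every KO library lay above every WT library, with differences of 0.90 ± 0.15 untransformed and 1.17 ± 0.16 with p210 (edgeR adjusted p = 0.00656 and 0.00263). Ucp2 in the library labelled KO p210 replicate 2, at 835, was in the range of the other KO p210 libraries.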

How the data were processed

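The deposited counts per gene come from the authors' use of featureCounts 1.5.1, reverse-stranded, against GENCODE M13, per the file headers; trimming (Trimmomatic), alignment (STAR) and the build (GRCm38) are named in the submitters' processing notes. TPM values were deposited by the authors beside the counts. Members and gene lists were chosen with earlier results of these data known. Counts were scaled by TMM and tested with edgeR 4.0.16 (quasi-likelihood, robust, 1 mean per group, all 14 libraries, R 4.3.3), after edgeR's filter for low counts, with Benjamini-Hochberg adjustment over 14512 genes and a threshold of 0.05. CPM use TMM-scaled library sizes. The scripts were tested on simulated data. Named genes were the mitochondrial mRNAs, up to 4 nuclear genes per complex with the smallest adjusted p among those past the threshold, the 3 largest changes per direction at 5 CPM or more, the isoforms, and up to 3 genes per list; others were chosen after their values were seen. Shared windows came from GENCODE M21 transcripts. Each share was taken over the windows of all annotated transcripts of a gene, so the share within its main mRNA can be larger. Alternatives used DESeq2 1.42.0, limma 3.58.1 (voom), other scalings, filters, blocks and samples. Same-line WT libraries had correlations of 0.163, 0.114 and 0.123 in their deviations from the group means, and lines come from the labels' codes and letters. For KO the values were 0.062, 0.08 and 0.021. WT pairs of different lines in the 2 states gave at most 0.075. Pairs of different genotype ran from -0.213 to 0.265, so the same-line values lie within the range of unrelated libraries.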

Additional observations from a re-analysis of the deposited data

Results flagged for a closer look

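In groups of 4 libraries, 1 library stood far from the other 3 in 8 of 190 groups of values examined for OXPHOS genes and their sums; chance alone flags about 1 in 20 groups. KO p210 replicate 3 stood high for Cox6b2 (4.45 CPM against 0.104 to 0.351) and Cox6a2 (3.69 against 0.116 to 0.679). The library labelled KO p210 replicate 2 stood low for Sdhb (89.5 against 112 to 113), KO p210 replicate 4 low for Atp5g3 (203 against 233 to 237) and KO p210 replicate 1 high for Atp5j2 (101 against 84.4 to 86.9). WT untransformed replicate 3 stood high for Ndufc1 (31.3 against 28.5 to 28.7) and Atp5b (1546 against 1447 to 1462) and low for Cox7a2l (90.4 against 109 to 112).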

How the results depend on the processing

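Among nuclear genes, the count for KO against WT untransformed (4) was 2 with the replicate block by number and with code as a term, 0 with sequencing runs as a term, 1 and 0 within the first and second code, 9 with DESeq2, 0 without the filter on low counts and 9 from only the groups compared; leaving out 1 library gave 0 to 5. For KO against WT p210 (0) it was 1 within the first code, 3 with DESeq2 and 1 with limma-voom, and 0 to 1 leaving out 1 library. For p210 in WT (30) it was 23 with the replicate block by number, 16 with the block by line, and 9 and 1 within the codes, and 19 to 33 leaving out 1 library. For p210 in KO (24) it was 20 with the replicate block by number, 14 by line, 15 and 0 within the codes and 44 (2 higher, 42 lower) by library size, and 12 to 26 leaving out 1 library. For the interaction (0) it was 1 within the first code, and 0 to 1 leaving out 1 library. Among mitochondrial genes, KO against WT p210 (0) gave 2 within the first code, 1 with DESeq2 and 0 to 2 leaving out 1 library; p210 in WT gave 1 by library size and 0 to 2; p210 in KO gave 0 to 1; the other 2 comparisons gave 0 throughout. The replicate block changed no other count by more than 1.5 times. Single genes kept direction and side of the threshold in 12270 alternatives, lost it in 304 and gained it in 172, and no call reversed. The causes were not tested, but the codes alone leave fewer samples.

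Depth limits Cox6a2 and Cox6c2, with 182 and 21 counts in all; reads placed in more than 1 location are not analysed here. Counting by the codes leaves at most 2 libraries in an arm, and where an arm holds 1 it is assumed to vary like the others.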
